A study of Drosophila melanogaster with 120 samples.

Results

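The fourth chromosome of the fruit fly Drosophila melanogaster, often called the dot chromosome, is a small autosome, and 43 of its named genes were followed in adult males and females of 15 hemiclonal lines. A gene was taken where a probe set of the array was annotated to it alone, under its present symbol or an older synonym, and was placed on chromosome 4 by RefSeq. This gave 36 genes with 47 probe sets, out of 11,982 genes and 18,769 transcripts measured in the series. Caps is listed in the annotation as Cadps and Thd1 as Tdg. The other 7 genes, pan, PlexA, RpS3A, lgs, pho, CaMKI and ND-49, were not analysed here. With 29 further genes, 65 genes of the fourth chromosome were measured in all.

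The series holds 120 Affymetrix arrays, 4 from males and 4 from females of every line, each made from RNA of an independent group of 6 whole flies. Flies of a hemiclonal line carry 1 nearly complete haplotype of the outbred population LHM in common, and their other haplotype is drawn at random from that population. Per the study's methods the shared haplotype does not include the fourth chromosome, so the copies of the genes described here are not fixed within a line. Males came from double-X mothers, so their X chromosome is that of the line, and females came from LHM mothers. The study picked the lines, out of a larger set, for their spread in male and female fitness. From Day 12 the flies of each vial were kept with testers of the other sex for 24 h, and 6 flies were taken 20 h later, at Day 14 of the culture cycle or 4 days as adults.

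Most of the fourth chromosome is packaged as heterochromatin, rich in repeats and in the protein HP1a, and yet most of its genes are transcribed. The protein POF, named for the way it paints this chromosome, binds its active genes and is known to raise their output. The genes are of unrelated function, among them both fly Pax6 genes, the Hedgehog effector ci, the only fly ephrin and its receptor, and several proteins of the synapse and of muscle.

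The sexes were separated by their marker genes in every array. SP and Acp26Aa, whose products are made in male accessory glands, and 3 yolk protein genes did not overlap between male and female arrays. Values are on the log2 scale after RMA, and the array medians had a median of 6.37 over males and 5.73 over females. Centring each array on its median therefore lowers a male minus female difference by 0.64, and centring on 40 ribosomal protein transcripts raises it by 0.69. Each scaling shifts all genes alike, so a difference between 0 and 0.64 as deposited turns negative with the first and a negative difference of less than 0.69 in size turns positive with the second, here and in each list and probe set below. The number of arrays, 60 per sex, limits the precision of each value.

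Of the 36 genes, 16 were higher in males and 12 were higher in females, and 8 did not pass the test of sex (F test in a mixed model in which line and its interaction with sex were random, FDR of 0.001 over all transcripts). The shares were 44.4% and 33.3%, against 40% and 51.7% of all genes. Differences of at least 1 on the log2 scale were found for 11 genes higher in males (30.6%, against 26.6% of all genes) and for 6 genes higher in females (16.7%, against 27.1%). Male and female arrays did not overlap at all for 19 genes (52.8%, against 58%). The median male minus female difference was 0.12 on the log2 scale, where the median over all genes was -0.19, and it was -0.51 with arrays centred on their median. The calls of 19 genes, 11 higher in males and 8 higher in females, held in the same direction under all 3 scalings. The share of all genes that held under all 3 was not counted. With arrays centred on their median 28.9% of all genes were higher in males. With centring on ribosomal protein transcripts 29.6% were higher in females. These are the lowest shares of the 3 scalings in each direction. The 8 genes that did not pass as deposited (ey, sv, ci, Sox102F, Mitf, myo, ATPsynbeta and Zip102B) were all higher in females with arrays centred on their median (-0.62 to -0.48) and all higher in males with arrays centred on ribosomal protein transcripts (0.70 to 0.84). In RNA of whole flies, fewer cells of a type and less RNA per cell cannot be told apart.

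**Figure D1:**
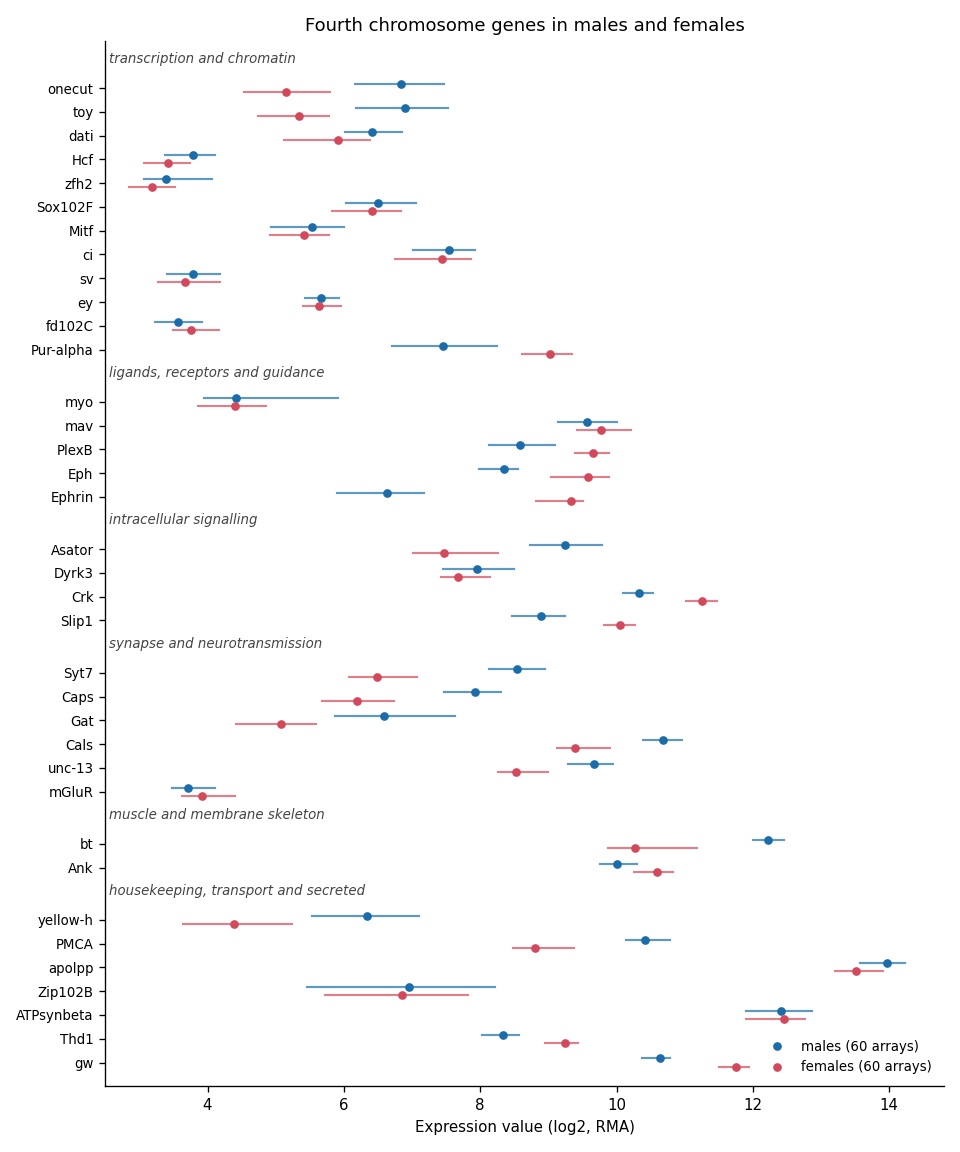
Expression value (log2, RMA) of the 36 genes in males (upper, blue) and females (lower, red), ordered by role and by male minus female difference. Points are medians and lines run from the lowest to the highest of 60 arrays. The lines of the sexes do not overlap for 19 genes, 5 of them among the 6 genes of the synapse.

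Most genes of the synapse were higher in males. Of 6 measured, 5 were higher in males and 1, mGluR, was higher in females, and the median difference was 1.41. For this and each role group below, 40% of all genes were higher in males and 51.7% higher in females. No group was tested as a set. Syt7, a synaptotagmin that senses calcium at secretory vesicles, had the lowest, median and highest values of 8.13, 8.55 and 8.95 in males, against 6.07, 6.49 and 7.07 in females. Every male array was thus above every female array. Its means were 8.56 ± 0.11 in males and 6.53 ± 0.12 in females (SD of 15 line means), a difference of 2.03 (SE 0.04), or 4.10-fold (F test of sex, adjusted p = 3.9e-17).

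Caps, which primes dense-core vesicles for secretion, ran from 7.47 over 7.93 to 8.30 in males (lowest, median and highest array) and from 5.68 over 6.20 to 6.74 in females. The difference was 1.71 (SE 0.04, 3.28-fold, adjusted p = 1.3e-15). Gat, a transporter that clears the neurotransmitter GABA, had values of 5.86, 6.59 and 7.63 in males, against 4.42, 5.07 and 5.59 in females, a difference of 1.56 (SE 0.06, 2.95-fold, adjusted p = 3.2e-13). In neither gene did arrays of the sexes overlap, although the replicate arrays of Gat were far apart in males.

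Cals, a cadherin-like protein of the postsynaptic membrane known as calsyntenin, was also clearly separated. Its arrays lay at 10.39, 10.68 and 10.97 in males, against 9.13, 9.39 and 9.90 in females, a difference of 1.25 (SE 0.04, 2.38-fold, adjusted p = 2.5e-14). The vesicle priming factor unc-13 was higher in males by 1.12 (SE 0.03). The metabotropic glutamate receptor mGluR was dim in both sexes, with means of 3.73 in males and 3.94 in females, and its difference of -0.21 changed sign when arrays were centred on ribosomal protein transcripts.

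The 7 measured of 9 general nervous system markers were also all higher in males, by 0.23 (brp) to 2.35 (Snap25). With median centring brp and para (0.41) turn negative. Their mean per array ran from 8.26 to 8.99 in males, against 7.01 to 7.53 in females, and the defining marker elav averaged 8.36 in males and 7.09 in females. The part of these tissues in the difference of the synaptic genes was not tested.

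The ligands, receptors and guidance molecules went the other way. None of the 5 measured was higher in males (40% of all genes were), 4 were higher in females (51.7% of all genes were), and the median difference was -1.05. Ephrin, the membrane-bound ligand of the Eph receptor, had the widest difference of all 36 genes as deposited and with median centring. With centring on ribosomal protein transcripts it came after Syt7 (2.72), yellow-h (2.69), bt (2.57), Asator, Caps, onecut, PMCA, toy and Gat. Ephrin lay at 5.89, 6.63 and 7.18 in males (lowest, median and highest array), against 8.83, 9.33 and 9.51 in females.

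The highest male array of Ephrin was well below the lowest female array. Its means were 6.62 ± 0.13 in males and 9.30 ± 0.07 in females (SD, n = 15 lines), a difference of -2.69 (SE 0.05), or 6.43-fold (F test of sex, adjusted p = 4.3e-17). Its receptor Eph, a tyrosine kinase of axon guidance, moved in the same direction, with means of 8.33 ± 0.08 in males and 9.57 ± 0.08 in females and a difference of -1.24 (SE 0.04). PlexB, a receptor of semaphorins, differed by -1.05 (SE 0.03).

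Of the TGF-beta family ligands, maverick (mav) had array values of 9.14, 9.57 and 10.01 in males, against 9.42, 9.78 and 10.21 in females. These ranges overlap widely. The call of mav was close to the threshold. Its adjusted p was 0.00105 without H14, 0.00103 without P13, 0.00105 without P26 and 0.00124 without the arrays of replicate number 1. Its difference of -0.24 (SE 0.05, adjusted p = 0.000404) was negative in 14 of 15 lines, and turned to 0.45 with arrays centred on ribosomal protein transcripts. Myoglianin (myo) was dim, with means of 4.49 in males and 4.37 in females, and did not pass as deposited (adjusted p = 0.102), with a difference of -0.52 or 0.80 under the other scalings.

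The 8 ovary and maternal RNA markers were all higher in females and averaged 4.13 to 5.01 per array in males and 10.31 to 10.76 in females, while the 8 testis markers averaged 10.06 to 10.82 in males and 4.06 to 4.48 in females. How much of the differences of Ephrin, Eph and PlexB, or of any gene below, belongs to the gonads was not tested.

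Of 12 transcription and chromatin genes, 5 were higher in males and 2 higher in females, and 5 did not pass. The widest differences among those higher in males were in the homeodomain factor onecut and the Pax6 gene toy, twin of eyeless. The arrays of onecut lay at 6.16, 6.83 and 7.47 in males, against 4.53, 5.15 and 5.80 in females, a difference of 1.66 (SE 0.06, 3.16-fold, adjusted p = 1.9e-13). Those of toy lay at 6.18, 6.90 and 7.52 in males, against 4.74, 5.34 and 5.78 in females, a difference of 1.59 (SE 0.05, 3.02-fold, adjusted p = 1.8e-13).

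For neither gene did the sexes overlap. The other Pax6 gene, eyeless (ey), had means of 5.69 in males and 5.64 in females, and its difference of 0.05 (SE 0.02) did not pass as deposited (adjusted p = 0.0347). It was -0.58 with median centring and 0.74 with centring on ribosomal protein transcripts, and both passed. The same held for shaven (sv), a Pax2 gene at 3.78 in males and 3.70 in females (-0.56 and 0.77). Pur-alpha, a single-stranded nucleic acid binding protein, went the other way. It had values of 6.71, 7.46 and 8.24 in males, against 8.61, 9.02 and 9.35 in females, without overlap, a difference of -1.55 (SE 0.06, 2.93-fold, adjusted p = 9.7e-13).

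Smaller differences were found in dati, a zinc finger factor (0.55), Hcf, the host cell factor of chromatin complexes (0.33), and zfh2 (0.24), and all 3 turned negative with arrays centred on their median. The forkhead gene fd102C differed by -0.20, which turned positive with centring on ribosomal protein transcripts. Hcf, zfh2, fd102C and sv averaged under 5 in both sexes, as did mGluR and myo, so that 6 of 36 genes were dim.

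Among the genes that did not pass as deposited were several best known from development. Cubitus interruptus (ci), the transcription factor at the end of the Hedgehog pathway, had array values of 7.01, 7.54 and 7.92 in males, against 6.75, 7.44 and 7.86 in females. Sox102F, of the Sox family, had values of 6.03, 6.50 and 7.06 in males, against 5.83, 6.41 and 6.83 in females. Their differences of 0.09 (adjusted p = 0.109) and 0.15 (adjusted p = 0.0258) did not pass, and neither did that of Mitf, a regulator of lysosomal genes (0.13, adjusted p = 0.0154). With centring on array medians ci, Sox102F and Mitf had differences of -0.55, -0.48 and -0.50, and on ribosomal protein transcripts 0.78, 0.84 and 0.82, all of which passed.

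Intracellular signalling genes were divided evenly, with 2 of 4 measured genes higher in males and 2 higher in females. Asator, of the tau tubulin kinase family, lay at 8.73, 9.24 and 9.79 in males, against 7.01, 7.48 and 8.25 in females, a difference of 1.75 (SE 0.05, 3.36-fold, adjusted p = 2.0e-14). The SH2 and SH3 adaptor Crk lay at 10.09, 10.33 and 10.54 in males, against 11.02, 11.25 and 11.48 in females, a difference of -0.92 (SE 0.02, 1.90-fold, adjusted p = 7.6e-17). The sexes did not overlap in either. Slip1, named for its binding to the potassium channel Slowpoke, was lower in males with a difference of -1.15 (SE 0.03). The kinase Dyrk3 was higher in males by 0.28, which turned to -0.36 with arrays centred on their median.

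In muscle, bent (bt) encodes projectin, a giant protein of the sarcomere. Its arrays lay at 11.995, 12.22 and 12.45 in males, against 9.87, 10.27 and 11.19 in females, a gap that no array crossed. The difference was 1.88 (SE 0.03), or 3.69-fold (adjusted p = 2.7e-17). The 6 measured of 8 muscle markers were all higher in males too, by 1.24 to 2.67, and averaged 11.28 to 11.82 per male array and 8.96 to 10.27 per female array. Their part in the difference of bt was not tested. Ank, the ankyrin that ties membrane proteins to the spectrin skeleton, differed by -0.57 (SE 0.03), with a few overlapping arrays, and turned to 0.12 with centring on ribosomal protein transcripts.

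Among the 7 housekeeping, transport and secreted genes, 3 were higher in males, 2 were higher in females and 2 did not pass. The gene yellow-h, of the yellow family of secreted proteins, had values of 5.54, 6.34 and 7.11 in males, against 3.64, 4.39 and 5.24 in females, a difference of 2.00 (SE 0.07, 4.01-fold, adjusted p = 2.9e-13). The plasma membrane calcium pump PMCA had values of 10.13, 10.42 and 10.79 in males, against 8.48, 8.80 and 9.38 in females, a difference of 1.61 (SE 0.03, 3.06-fold, adjusted p = 2.0e-16). Again no male array reached the female range.

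The genes of this group that were higher in females were gw and Thd1. Gawky (gw), the GW182 protein of microRNA silencing, lay at 10.38, 10.63 and 10.79 in males, against 11.50, 11.76 and 11.94 in females, a difference of -1.12 (SE 0.02, 2.17-fold, adjusted p = 5.2e-16). The DNA glycosylase Thd1 differed by -0.88 (SE 0.03). Neither gene had overlapping arrays.

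Apolipophorin (apolpp), the precursor of the main lipoprotein of the haemolymph and a product of the fat body, was higher in males. It had values of 13.57, 13.96 and 14.23 in males, against 13.20, 13.52 and 13.91 in females, which overlap. The difference was 0.43 (SE 0.04, adjusted p = 1.3e-08), positive in all 15 lines, and became -0.20 with arrays centred on their median. Of 4 measured fat body markers, 2 were higher in males (Lsp2 and NLaz) and 2 in females (Fbp1 and Fbp2).

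The mitochondrial ATP synthase subunit ATPsynbeta had means of 12.45 in males and 12.44 in females. The zinc transporter Zip102B had means of 6.94 ± 0.32 in males and 6.93 ± 0.26 in females (SD, n = 15 lines). Neither passed the test of sex as deposited, with differences of 0.01 (SE 0.03) and 0.02 (SE 0.09), and both passed under the other scalings, at -0.62 with median centring and at 0.70 and 0.71 with centring on ribosomal protein transcripts.

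Several probe sets were annotated to 7 of the genes, and the values above are those of the brightest. For PMCA the differences were 1.61, 0.21 and 0.59, all higher in males as deposited, and the smaller ones turn negative with median centring. For PlexB they were -1.05, -1.33, -0.44 and -0.13, of which the last did not pass, and for Ank both were negative. The second probe set of Caps gave 0.65. Probe sets disagreed in sign for toy, with 1.59, 0.42 and -0.34, and for dati, with 0.55 and -0.28, where the negative probe set averaged under 4 in both sexes.

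Along most of the chromosome, genes higher in males and genes higher in females were interleaved. Of 64 neighbouring pairs among the 65 measured genes, 39 shared the sign of the difference. No comparison with a random order of the genes was made. All genes from apolpp to Caps at the end, picked out after their values were seen, had positive differences (0.08 to 2.20). Of these, apolpp, sv, Kif3C, Mitf and Dyrk3 turned negative with median centring. A run from CG31999 to Syt7, picked out after its values were seen, holds 7 genes with positive differences (1.27 to 2.03 but for NfI at 0.39, which was -0.24 with median centring), among them yellow-h and Syt7. Ephrin and Eph lie close together with CG1909 and onecut between them, which differed by 1.92 and 1.66 in the other direction.

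**Figure D2:**
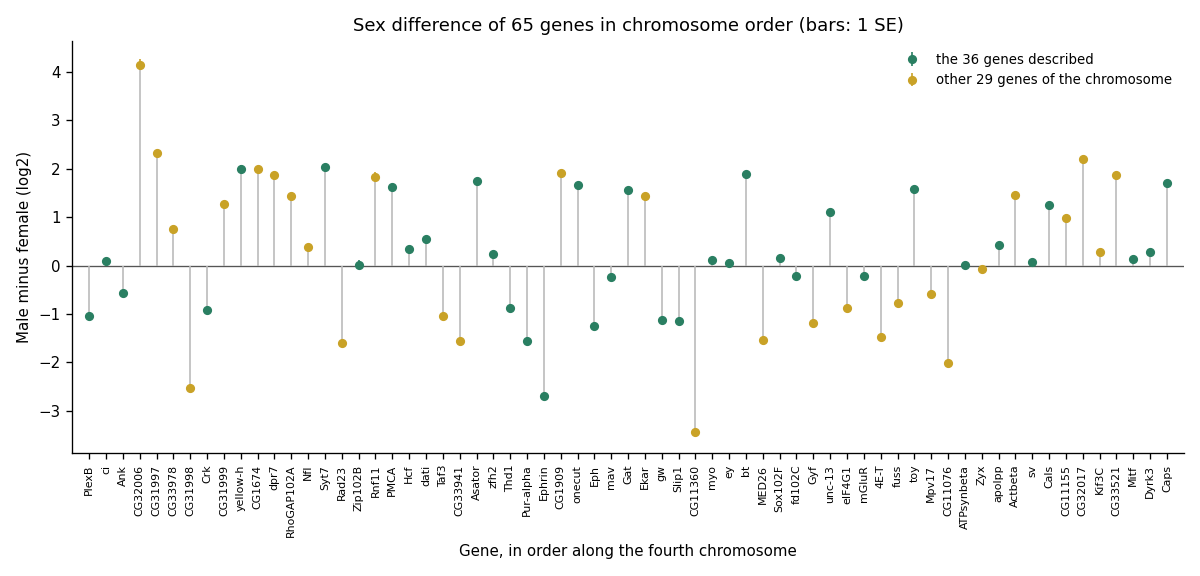
Male minus female difference (log2) of 65 genes in their order along the fourth chromosome, with 1 SE over 15 lines (often smaller than the point). The 36 genes described are green and the other 29 are yellow. Both signs occur along most of the chromosome, but all genes from apolpp to the end are positive. Of 64 neighbouring pairs, 39 share a sign.

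Regulators of the chromosome differed between the sexes as well. Of 8 genes listed, 5 were measured. Pof, which encodes POF, averaged 11.82 ± 0.11 in males and 9.23 ± 0.08 in females (SD, n = 15 lines), a difference of 2.59 (SE 0.03, adjusted p = 2.4e-19). The other 4 were higher in females: the gene of HP1a by -1.98 as male minus female, its partners Su(var)2-HP2 and Su(var)3-7 by -2.21 and -2.14, and wde, a cofactor of the methyltransferase Eggless, by -2.02. None of these genes lies on the fourth chromosome.

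The design also asks which genes vary between lines. Within males, the line term passed for 4 of 36 genes (11.1%), where 36.1% of all genes passed (restricted likelihood ratio test, FDR of 0.001), and 19 had an unadjusted p under 0.05 (52.8%, against 66.8%). Within females it passed for 0 of 36, where 10.8% of all genes passed, and 6 of the 36 had an unadjusted p under 0.05 (16.7%, against 36% of all genes). With the moderated test of limma, 1 gene passed in females, where 11.1% of all genes did. Over both sexes together the line term passed for 0 of 36 genes (0.325% of all genes), and 2 had an unadjusted p under 0.05 (5.56%, against 18.8%). Over both sexes limma tested another term, with line as a fixed effect set against the spread of replicate arrays. By that test 4 of 36 genes were called, and 35.5% of all genes. At an FDR of 0.05, 14 genes passed in males (38.9%, against 61.6%) and 3 in females (8.33%, against 24.1%).

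The lower share held over all 65 measured genes of the fourth chromosome, of which 16.9% had a line term in males. On the other arms the share was 40.8% (X), 38.1% (2L), 37.4% (2R), 34.7% (3L) and 32.6% (3R). In females it was 4.62% on the fourth chromosome and 9.52% to 12.4% elsewhere. The median share of the variance of male arrays that lay between lines was 19.6% on the fourth chromosome and 29.9% to 35.0% on the other arms.

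The spread between replicate arrays was slightly wider on the fourth chromosome, with a median SD of 0.162 in males and 0.174 in females, against 0.146 to 0.150 and 0.151 to 0.163 on the other arms. Over the genes of the fourth chromosome the median male value was 8.33, and over those of the other arms it was 7.32 to 7.82. Among genes with a male mean of at least 7, a limit chosen after seeing the data, 23.1% of 39 genes of the fourth chromosome and 43.1% to 51.6% of genes on the other arms had a line term in males. The difference between chromosomes was not tested.

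**Figure D3:**
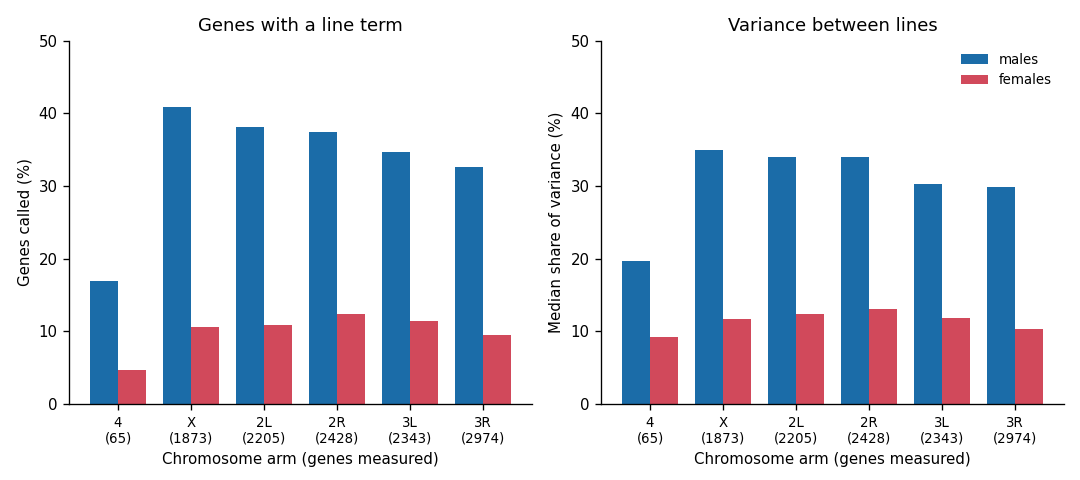
Left, percentage of genes with a line term at an FDR of 0.001 in males (blue) and females (red) for each chromosome arm, with the number of genes measured. Right, median percentage of variance between lines. Both are lowest on the fourth chromosome, at 16.9% and 19.6% in males.

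By their brightest probe sets, the 4 genes with a line term in males were apolpp, mav, Sox102F and gw. A second probe set of PMCA passed the same test (43.1%, adjusted p = 0.0008), making 5 of 47 probe sets (10.6%). Centring on ribosomal protein transcripts added Caps, PMCA, bt and fd102C and lost Sox102F and gw, where 51.2% of all genes passed. With limma ci was added, where 37.9% of all genes passed. In males of apolpp, 65.6% of the variance lay between lines (adjusted p = 1.8e-07). The line means ran from 13.69 in P48 to 14.11 in P56, and the replicate arrays of a line had an SD of 0.07. In females its line means ran from 13.31 in H09 to 13.69 in P18 and the term did not pass (28.7%, adjusted p = 0.0474). P48 was thus the lowest line in males but not in females. The call in males held under each alternative run, including each line and each replicate number left out.

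For mav, 60.2% of the variance of males lay between lines (adjusted p = 2.3e-06). Male line means ran from 9.26 in P13 to 9.79 in H12, with P48 as low as P13. Female line means ran from 9.59 in H07 to 10.08 in P50, with 45.5% of the variance between lines (adjusted p = 0.00113), the smallest p of the 36 genes in females and just short of the threshold. The order of the lines was not the same in the sexes, and the sex-by-line term of mav took 52.8% of the variance (adjusted p = 5.9e-06). Without replicate number 2 neither call was made (adjusted p = 0.00158 in males and 0.0051 for sex by line), and without replicate number 4 that of sex by line was not (adjusted p = 0.00136). The female term passed without H13, P07, P15 or P56, at an adjusted p of 0.000709 to 0.000925.

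Sox102F had 52.5% of the variance of males between lines (adjusted p = 4.5e-05), from 6.28 in H07 to 6.92 in P13. In females its line means ran from 6.09 in P07 to 6.53 in H13 (22.4%, adjusted p = 0.121). Its sex-by-line term took 39.4% (adjusted p = 0.000905). The male call was not made without P13 (adjusted p = 0.00169) or without replicate number 1, 3 or 4 (0.00153 to 0.00783), and with arrays centred on ribosomal protein transcripts neither call was made (0.00838 in males and 0.0753 for sex by line). The sex-by-line call was also not made without any 1 of H07, H09, H10, P07, P13, P18, P26, P50 or P56 (0.00104 to 0.00672) or any replicate number (0.00193 to 0.101). These 2 genes, mav and Sox102F, were those with a sex-by-line term among the 36 (5.56%, against 12.8% of all genes).

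In gw, 51.6% of the variance of males lay between lines (adjusted p = 6.2e-05), over the narrow range from 10.49 in H07 to 10.73 in P48. Replicate arrays of gw had an SD of 0.07, the lowest of the 36 genes. The male call was not made without replicate number 1, 2 or 3 (adjusted p = 0.00292 to 0.00688) or with arrays centred on their median (0.00789) or on ribosomal protein transcripts (0.00179). In females its line means ran from 11.65 in P18 to 11.81 in P56 (13.8%, adjusted p = 0.306). The sex-by-line term of gw (36.6%, adjusted p = 0.00128) and that of apolpp (35.97%, adjusted p = 0.00141) were just short of the threshold. That of gw passed without H12 or P22 (0.000949 and 0.000319) and that of apolpp without P07, P13 or P22 (0.00055 to 0.00096). The term of ci was further from the threshold (23.0%, adjusted p = 0.0251).

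Next in order in males was ci, with line means from 7.16 in H07 to 7.78 in P15 (40.0%, adjusted p = 0.00179), which passed without H14 (0.000279) or P26 (0.000766). Next in order in females after mav were Caps, from 5.93 in P07 to 6.53 in P18 (29.9%, adjusted p = 0.0389), apolpp, and Asator, from 7.15 in P07 to 7.77 in H12 (25.97%, adjusted p = 0.0727), none of which passed, and then Sox102F.

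**Figure D4:**
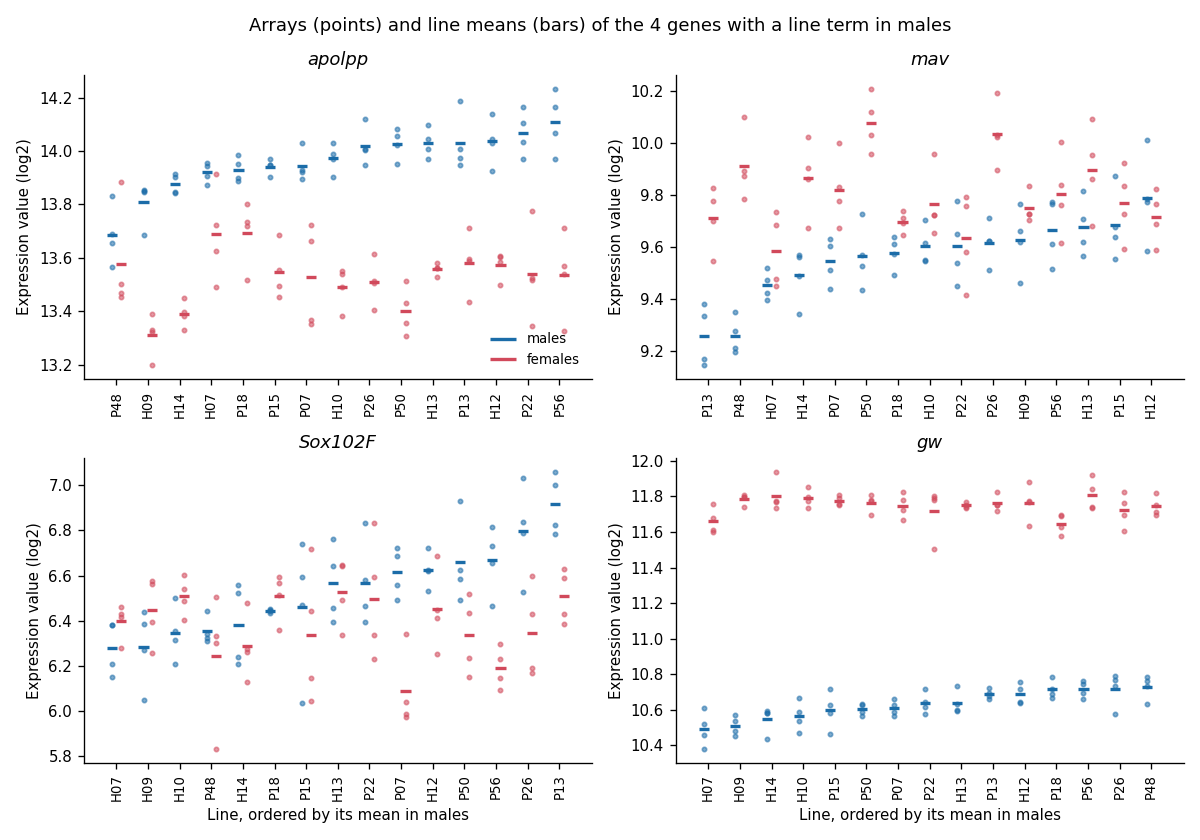
Expression value (log2) of single arrays (points) and line means (bars) for apolpp, mav, Sox102F and gw, in males (blue) and females (red), with lines ordered by their male mean. Male line means of apolpp run from 13.69 to 14.11 and those of gw from 10.49 to 10.73. The order of the lines is not the same in females, though H09 and H14 are low in both sexes for apolpp. The orders were not compared by a test.

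Males of H07 and H12, which were picked out after their values were seen, deviated in 1 direction over most of the genes. Males of H07 had the lowest line mean for 17 of 36 genes (47.2%), where this was so for 17% of all genes. Males of H12 had the highest line mean for 15 genes (41.7%, against 10.1%). Of the 36 genes, 31 lay below the mean of the 15 lines in H07 males, where 54.3% of all genes did. In H12 males 33 lay above it and 3 below, where 51.2% of all genes lay below. Males of other lines also leaned to 1 side, by less in the median. In P56, P13 and P18 males 7, 9 and 11 of the 36 genes lay below the mean (medians 0.06, 0.07 and 0.07), where 49.2%, 45% and 47.7% of all genes did. In P07 and H10 males 26 and 25 lay below it (medians -0.03 and -0.04), where 50% and 55.3% of all genes did. The median deviation was widest in H07 males, at -0.15, and in H12 males, at 0.11.

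The deviations of H07 and H12 males were also seen in the 29 other genes of the chromosome. Of these, 25 lay below the mean of the lines in H07 males (median -0.15) and 25 above it in H12 males (median 0.10). On the other arms the median deviation in H07 males was -0.023 to -0.012, and in H12 males it was -0.0087 to 0.0028. The 4 H07 male arrays had medians over the 65 genes of -0.21, -0.13, -0.12 and -0.08, and those of H12 had 0.03, 0.06, 0.12 and 0.21. The arrays of either line thus all lay on 1 side of the mean, within a range of -0.21 to 0.24 over the 60 male arrays.

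In females of H07 the deviation had the other sign, with a median of 0.06. Of 36 genes, 30 lay above the mean of the lines and 6 below, where 56.4% of all genes lay below. Females of P07 were lowest for 10 genes (27.8%, against 7.68% of all genes), with a median of -0.06. Pof averaged 11.84 in H07 males and 11.68 in H12 males, within a range of 11.64 (P26) to 11.98 (P50), and its line term passed in males (adjusted p = 2.1e-05). Nervous system markers averaged 8.49 in H07 males and 8.74 in H12 males, the highest of the lines, and testis markers averaged 10.70, the highest, in H07 males and 10.32 in H12 males. Fat body markers averaged 8.10 in H07 males and 7.70 in H12 males, the lowest of the lines, and muscle markers 11.65 and 11.63. Their part in these deviations was not tested.

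**Figure D5:**
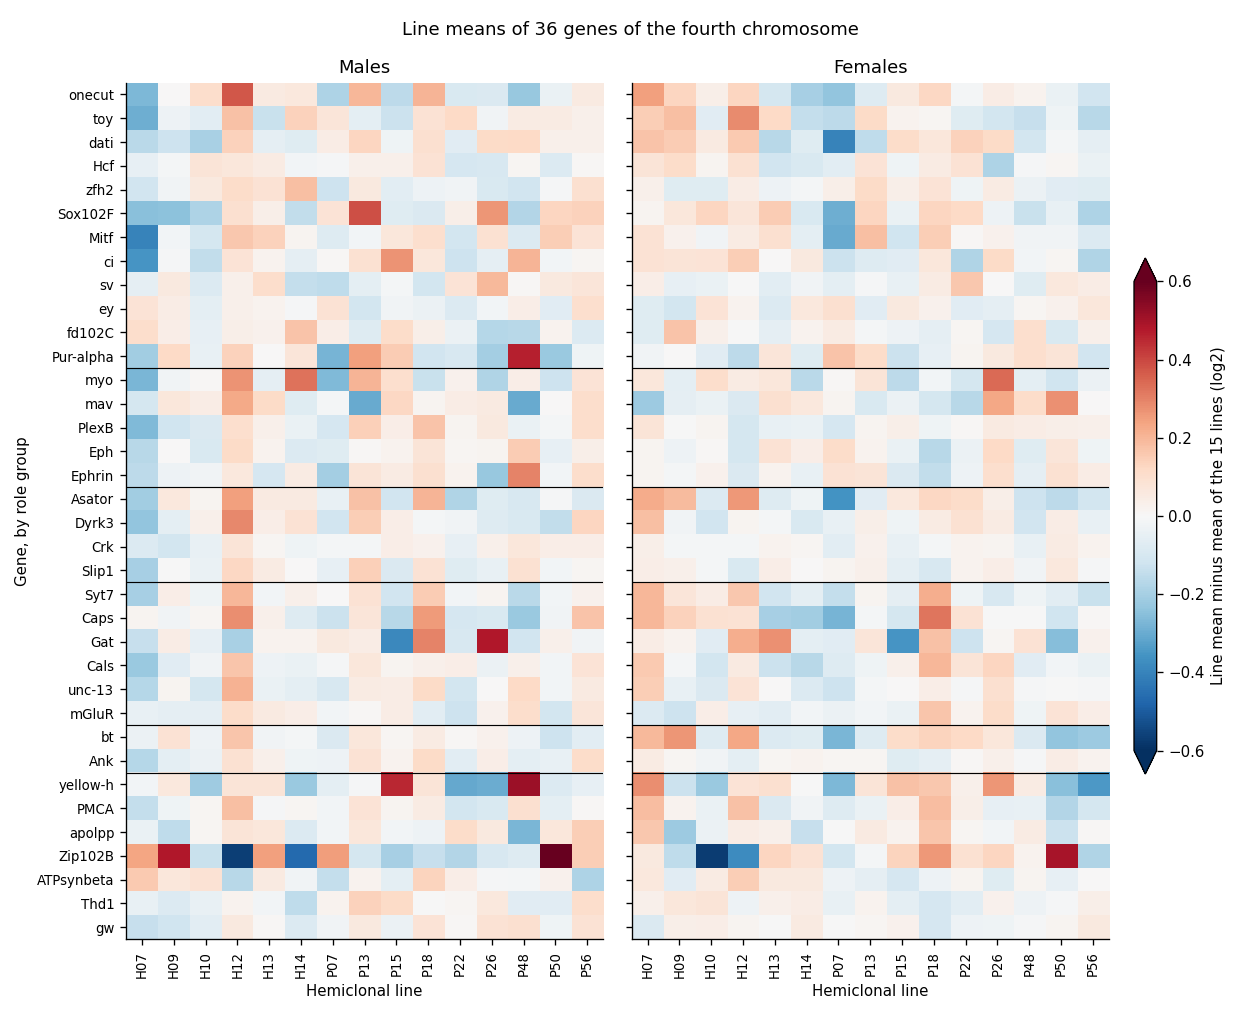
Line mean minus the mean of the 15 lines (log2, colour, with values beyond 0.6 shown at the end of the scale) for 36 genes in males (left) and females (right), by role group. In males the H07 column is mostly blue (31 of 36 genes below the mean) and the H12 column mostly red (33 above it), and Zip102B has the widest spread. Of all genes, 54.3% lay below the mean in H07 males and 51.2% in H12 males.

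Replicate arrays were far apart in a few genes. Zip102B had an SD between replicate arrays of 0.72 in males and 0.55 in females, above 99.8% and 99.2% of all genes, and its arrays lay between 5.46 and 8.21 in males and between 5.73 and 7.82 in females. The estimated share of variance between lines was 0% in each sex, the lowest value the estimate can take, and 1.97% over both sexes. Its line means ran from 6.38 in H12 to 7.54 in P50 in males, and P50 was also highest in females (7.42). In males Gat followed with 0.47 (above 99% of genes), then Pur-alpha (0.33), myo (0.32), onecut (0.31), yellow-h (0.30) and toy (0.29), above 95.9% to 97.2% of all genes. In females onecut (0.29), bt (0.28) and yellow-h (0.28) came next after Zip102B, above 92% to 93.3% of all genes, and Gat had 0.24.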

How the data were processed

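The authors processed the arrays (GeneChip Drosophila Genome 2.0) with RMA as implemented in affy, and the deposited values are 1 log2 value per probe set, background-corrected and quantile-normalized. No version of either was given in the sources used here. Of 18,952 probe sets, 183 controls were left out. The array annotation names 1 gene for 13,646 transcripts, several for 402 and none for 4,721, and RefSeq (Release 6 plus ISO1 MT, names, chromosome and gene order only) placed 13,543 by Entrez ID. A gene was represented by its probe set with the highest mean.

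A mixed model was fitted to each transcript, in which sex was fixed and both line and its interaction with sex were random, and a model with line alone was fitted in each sex. The F test of sex had 14 residual degrees of freedom. Variance terms were tested by a restricted likelihood ratio, compared with a chi-square mixture. The design is balanced and the fits were computed in closed form, checked on simulated data and against lme4. The Benjamini-Hochberg adjustment ran over all 18,769 transcripts. The methods of the study also block for batch, and the batch of an array is not given in the sources used here, so batch was not fitted.

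The 43 genes, role groups and marker lists were chosen with earlier results of these data known. Values in full were given for the 12 genes with the largest sex difference, the 5 with the smallest p for line in each sex and for sex by line, and the brightest gene of each role group. Alternatives were other centrings, thresholds and probe sets, a replicate block, replicates and lines left out, and limma. Male and female arrays of the same line and number had a median correlation of deviations of 0.047 (over 0.1 in 19 of 60 pairs), so replicate numbers were not taken to pair samples.

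Python 3.11.15 (numpy 2.4.6, pandas 2.3.3, scipy 1.17.1, matplotlib 3.10.9) and R 4.3.3 (limma 3.58.1, lme4 1.1.37) were used.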

Additional observations from a re-analysis of the deposited data

Results flagged for a closer look

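For 2 genes the differences between lines were not the same in males and females, by the test of the sex-by-line variance. In mav this term took 52.8% of the variance. P48 had one of the lowest line means in males (9.26) and the third highest in females (9.91). In Sox102F the term took 39.4% of the variance. Males of P07 averaged 6.61 and females of P07 6.09, the lowest female line, whereas males of H07 averaged 6.28, the lowest male line, and females of H07 6.40.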

How the results depend on the processing

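Scaling moved the counts of sex most. With arrays centred on their median, 24 genes were higher in females, against 12 as deposited, and the median difference was -0.51. Of all genes, 64.7% were then higher in females, against 51.7% as deposited. With arrays centred on ribosomal protein transcripts, 28 genes were higher in males, against 16, the median difference was 0.81, and 1 gene had a sex-by-line term. Of all genes, 63.4% were then higher in males, against 40% as deposited. Centring on medians turned the differences of Sox102F (-0.48), apolpp (-0.20) and ci (-0.55), and centring on ribosomal protein transcripts turned that of mav (0.45). Requiring a difference of at least 1 left 6 genes higher in females.

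At an FDR of 0.05, 14 genes had a line term in males (38.9%, against 61.6% of all genes), 3 in females (8.33%, against 24.1%) and 6 a sex-by-line term. The share of all genes with a sex-by-line term was not counted at this FDR. The limma test called 1 gene for line in females and, with line as a fixed effect, 4 over both sexes. Leaving out dim probe sets called 1 in females. Without H07 and H12, chosen after seeing the data, 1 sex-by-line term was left. Leaving out 1 replicate number, 2 to 3 genes had a line term in males and 0 to 1 a sex-by-line term. Leaving out 1 line, 0 to 1 genes had a line term in females and 1 to 4 a sex-by-line term.

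With the replicate number as a block, 5 genes had a line term in males (yellow-h added), where 43.6% of all genes did. In females 1 gene had one (mav), where 12.2% of all genes did, and 3 genes had a sex-by-line term (gw added). The test of sex rests on line means, which the block does not alter, so its calls could not change. Within a sex, arrays of different lines with the same number had a median correlation of deviations of 0.12 in males and 0.075 in females, against -0.042 and -0.022 for different numbers.

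Arrays limit these results in 2 ways. Dim genes (6 of 36 under 5 in both sexes) can hide differences, and a gene missing the threshold for a line term is not shown to be equal between lines.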

Other observations

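The 29 other genes of the fourth chromosome had wider sex differences as deposited. Of these, 16 were higher in males (55.2%, against 40% of all genes) and 12 were higher in females (41.4%, against 51.7%), with a median absolute difference of 1.47, against 0.90 for the 36 genes above and 1.13 over all genes. The widest as deposited was that of CG32006, with a mean of 8.41 in males, against 4.26 in females (4.15, SE 0.11). CG11360 had a mean of 4.46 in males, against 7.90 in females (-3.45, SE 0.04), and was the wider of the pair with arrays centred on their median (-4.08, against 3.52 for CG32006). Named after their values were seen, and higher in females, were the proteasome shuttle Rad23 (-1.60), the Mediator subunit MED26 (-1.55), Taf3 of the TFIID complex (-1.03), 4E-T (-1.47) and the initiation factor eIF4G1 (-0.88), and their differences stayed negative under both other scalings. The activin ligand Actbeta was higher in males (1.45).

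Line terms in males passed for 7 of these 29 genes (24.1%, against 36.1% of all genes). The largest share of variance was in Rnf11, a RING finger protein, with 73.1% between male lines, from 7.33 in H07 to 9.31 in P56. The corepressor gene fuss had a line term in males (59.6%) and in females (48.6%, adjusted p = 0.000463), as did Mpv17, with 55.4% in males and 55.5% in females. The zyxin gene Zyx had one in females (59.3%) and not in males (25.1%, adjusted p = 0.0396), and its sex-by-line term passed (adjusted p = 0.000595). Zyx was the only 1 of the 29 that did not pass the test of sex, with a difference of -0.06 as deposited, and it passed at -0.70 with median centring and at 0.62 with centring on ribosomal protein transcripts.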
